A study of Sus scrofa with 21 samples.

Results

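The messenger RNAs described here are read from the mitochondrial genome of the pig. They are ND1, ND2, ND3, ND4, ND5, CYTB, COX1, COX2, COX3 and ATP6, chosen as the rows of the count files that carry these symbols and an identifier beginning ENSSSCG000000180, and they make up 10 of the 25880 genes in the files. All 10 were counted in each of the 21 testis libraries and all passed the filter on low counts. The remaining named mitochondrial messenger RNAs, ATP8, ND4L and ND6, bring the number to 13 and are given only where a result turns on them. The mitochondrial ribosomal and transfer RNAs could not be matched to an identifier by symbol and were not analysed here as a set. Identifiers without a symbol that may belong to them were not removed from the genes tested.

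Testis tissue came from artificial insemination boars of the Landrace and Duroc breeds, with 1 library per boar, and the RNA was sequenced after selection of messenger RNA. In Landrace, contrast (i) set 4 boars with high sperm hyperactivity at ejaculation, day 0 (L5, L6, L7 and L8), against 4 boars with low hyperactivity (L1, L2, L3 and L4). Hyperactivity is the vigorous, wide beat of the sperm tail that precedes fertilization. Contrast (iii) set 3 boars whose hyperactivity changed much from day 0 to 96 h of storage of the semen at 18 °C (L7, L13 and L15) against 4 boars in which it changed little (L2, L9, L10 and L12). L2 and L7 carry labels of both contrasts, so that the contrasts share these boars. In Duroc, 5 boars were labelled high (D1, D2, D3, D4 and D5) and 3 were labelled low (D6, D7 and D9). For 7 of the 8 Duroc boars the deposited label is the opposite of the group listed under the same boar name in the publication, so the Duroc groups are given by label only. No treatment or genetic change was applied to any boar, the storage concerned the semen and not the testis, and the labels give no age for a boar.

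Mitochondria keep a small circular genome that encodes core subunits of the respiratory chain and of ATP synthase, while all other subunits are encoded in the nucleus and imported. Both strands are transcribed by the mitochondrial RNA polymerase into long precursors, from which the messenger RNAs are cut, mostly at the transfer RNAs that lie between them. Messengers cut from the same precursor are known to reach different levels, since they are processed and degraded at different rates. In the testis, germ cell mitochondria change in form during spermatogenesis and are finally packed into the sheath around the midpiece of the sperm tail. A testis sample holds germ cells of many stages together with Sertoli, Leydig and other somatic cells, and in such samples more RNA per cell and more cells of a type rich in that RNA cannot be told apart.

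On Sscrofa11.1, in the RefSeq annotation, the members run in one direction along the mitochondrial chromosome, from ND1 at 3922 to 4876 to CYTB at 15342 to 16481. ND2 follows ND1 at 5087 to 6128. COX1 at 6511 to 8055 and COX2 at 8203 to 8890 come next, then ATP6 at 9120 to 9800 and COX3 at 9800 to 10583. ND3 lies at 10653 to 10998, ND4 at 11359 to 12736 and ND5 at 12935 to 14755. Annotated genes overlap at 4 places, by 43 bases between ATP8 and ATP6, 1 base between ATP6 and COX3, 7 bases between ND4L and ND4 and 17 bases between ND5 and ND6. The last of these lies across strands, which the counting kept apart. Reads that could not be given to a single gene took up 0.698% to 0.837% of the reads. Reads that align to more than 1 place, which would include exact nuclear copies of mitochondrial sequence, took up 5.83% to 8.28% of the reads and were not counted.

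The libraries held between 41358671 and 125576407 counts on genes. Markers of the testis were present, with the 9 elongating spermatid markers found summing to between 7404 and 17181 CPM and the Leydig cell markers to between 593 and 4554 CPM, where CPM is the read count scaled to a common library size after normalization by the trimmed mean of M-values. Of the Sertoli cell markers, AMH and GATA1 had no count in any library, and the other 8 summed to between 219 and 593 CPM. L13 stood apart from the other libraries, with the lowest elongating spermatid sum and the highest Sertoli cell sum.

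The 10 mitochondrial messengers took up a small but variable part of each testis library. Their share of the gene counts ran from 1.03% in the Duroc boar D5 to 3.99% in the Landrace boar L13, with a median of 1.99% over the 21 libraries. L13 was followed by L6 with 3.59% and D3 with 3.16%, and every other library lay at or below 2.45%. D3 was also the most deeply sequenced library. At the low end, L9 had 1.09% and L10 had 1.42%.

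**Figure D1:**
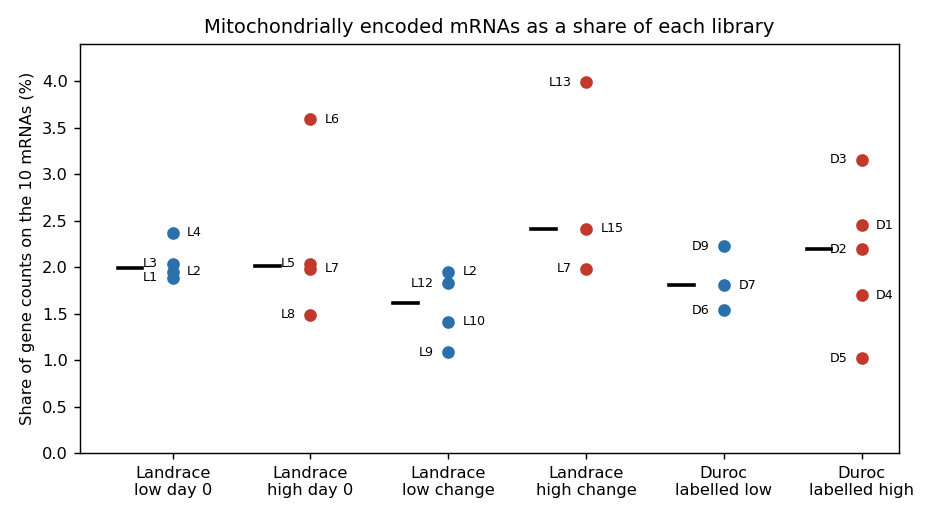
Share of gene counts on the 10 mitochondrial messenger RNAs (%, vertical axis) in each library, by label group (horizontal axis), with points for boars, blue for low and red for high groups, and short black bars beside the points for group medians. L2 and L7 appear in both Landrace contrasts. The 3 boars with a high change in hyperactivity lie above the 4 with a low change, by a narrow margin for L7 against L2, while the high and low groups overlap at day 0 and in Duroc.

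COX1, the catalytic subunit of cytochrome c oxidase (complex IV), was the most abundant member for its length in 21 of 21 libraries. Its level averaged 5118 ± 1706 CPM per kb of annotated length (SD, n = 21). COX2, which takes up electrons from cytochrome c, averaged 3616 ± 1273 CPM per kb (SD, n = 21). COX3, the remaining mitochondrial subunit of complex IV, averaged 3578 ± 1351 CPM per kb, and ATP6, the membrane subunit of ATP synthase through which protons pass, 3569 ± 1340.0 CPM per kb (SD, n = 21 each). COX2, COX3 and ATP6 did not separate from each other. COX2 exceeded COX3 in 13 of 21 libraries and COX3 exceeded ATP6 in 8 of 21, with mean log2 differences of 0.03 and 0.01 that were smaller than their SDs of 0.09 and 0.15.

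A gap followed these members. CYTB, the cytochrome b subunit of complex III, averaged 1420.4 ± 531 CPM per kb (SD, n = 21) and was below ATP6 in 21 of 21 libraries. The 5 complex I members, all subunits of the membrane arm of NADH dehydrogenase, were lower still and lay close together. ND2 averaged 801 ± 360.2 CPM per kb, ND5 742 ± 340 and ND1 674 ± 307 (SD, n = 21 each). ND3 averaged 626 ± 253 and ND4, the lowest, 559 ± 211 CPM per kb (SD, n = 21 each).

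Within complex I the order was not fixed. ND2 exceeded ND5 in 15 of 21 libraries, ND5 exceeded ND1 in 12, ND1 exceeded ND3 in 12 and ND3 exceeded ND4 in 17, and each of these 4 mean log2 differences was smaller than its SD. By contrast, the lowest of COX1, COX2, COX3 and ATP6 was between 2.07 and 2.72 times the highest of the other 6 members in every one of the 21 libraries. COX1 was on average 9.15 times as abundant for its length as ND4. ATP8, which is read from the same messenger as ATP6, averaged 240.1 ± 101 CPM per kb, and ND4L, which shares a messenger with ND4, 216 ± 88.6 (SD, n = 21 each). Both coding sequences are short, at 204 and 297 bases, against reads of 100 bases, and each overlaps its partner. ND6, the only one of the 13 on the opposite strand, averaged 163 ± 88.2 CPM per kb (SD, n = 21).

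**Figure D2:**
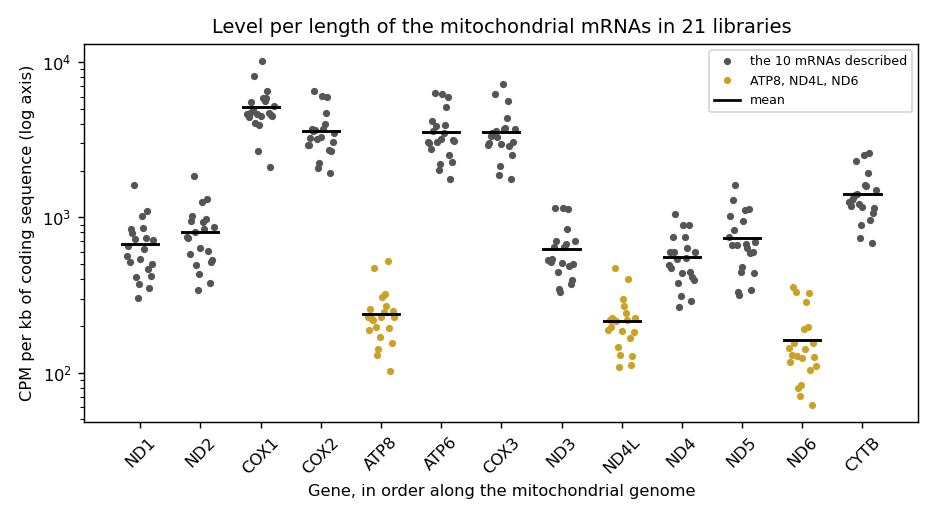
Level per length (CPM per kb of annotated length, log axis) of the 13 named mitochondrial messenger RNAs in 21 libraries, in their order along the mitochondrial genome, with points for libraries and bars for means. COX1, COX2, ATP6 and COX3 form a high group in every library, CYTB lies between, and the complex I members lie together below it.

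In the unadjusted make-up of the member counts, COX1 alone took up between 31.7% and 43.4%, with a median of 38.2%. The 3 complex IV members together took up between 58.6% and 67.8%, with a median of 63.3%, and the 5 complex I members between 12.5% and 22.6%, with a median of 17.1%. The complex I part was smallest in L8 and largest in L4. ND5, which is the longest member, made up 3.42% of the member counts in L8 and 9.92% in L4.

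The 10 messengers varied together from library to library, most loosely for ND5 in Landrace and for COX1 in Duroc. Over the 13 Landrace libraries, Pearson's r between the log2 CPM of 2 members ran as high as 0.99, for ND1 with ND2, and as low as 0.68, for ND5 with COX3. Over the 8 Duroc libraries the highest value was 0.99, for COX2 with CYTB, and the lowest 0.77, for COX1 with ND3. Members of 1 library share its depth, its RNA and its normalization, so these values are descriptions only.

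Set against the mean of the other 9 members, ND5 had an SD of 0.37 on the log2 scale and a range of 2.79-fold between L8 and L4. COX1 came next with an SD of 0.23 and a range of 1.72-fold between D3 and L10. ND4 followed the others most closely, with an SD of 0.12 and a range of 1.31-fold.

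Ratios between members that are neighbours along the genome cancel the library size. The ratio of ND1 to ND2 counts was the steadiest, from 0.676 to 0.865 over the 21 libraries. COX2 to ATP6 ran from 0.895 to 1.20. The ratio of ND5 to CYTB counts spread most, over 3.53-fold, from 0.435 in L8 to 1.53 in L4. L4, L2, L6 and L15 were the only libraries with more ND5 than CYTB counts, and all 4 are from Landrace boars.

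**Figure D3:**
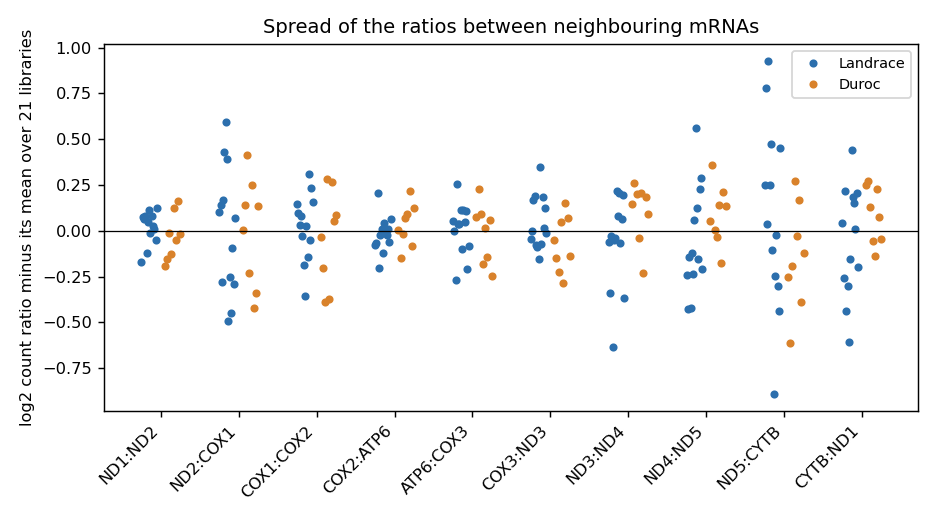
Log2 ratio of counts between neighbouring members, centred on its mean over 21 libraries (vertical axis), for each of 10 pairs (horizontal axis), with blue points for Landrace and orange points for Duroc libraries. The ratio of ND5 to CYTB spreads most and that of ND1 to ND2 least, and the breeds overlap in every pair.

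Contrast (i) addressed testis expression in boars with high against low hyperactivity at ejaculation. None of the 10 members passed the test. The mean log2 fold changes, high over low, were above 0 for 9 members and below 0 for ND5, with a median of 0.39 against 0.03 over all genes tested. With p adjusted by Benjamini-Hochberg over 12979 genes, the quasi-likelihood test of edgeR called 0 of 10 members, while it called 20.7% of all genes. At an unadjusted p under 0.05 the same test named 1 member, ND3, and 41.7% of all genes. The likelihood ratio test of edgeR also called 0 members, against 26.4% of all genes, and DESeq2 called 0, against 30.2%.

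The share of counts on the members was 2.04% in L5, 3.59% in L6, 1.99% in L7 and 1.49% in L8. In the low group it was 1.89% in L1, 1.95% in L2, 2.04% in L3 and 2.37% in L4. The 4 low boars lay within the range of the 4 high boars, and the medians were 2.01% and 1.99%. L6 was the highest and L8 the lowest of the 8 boars.

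ND3, a small complex I subunit, had the smallest p. Its level was 223, 399, 242 and 155 CPM in L5, L6, L7 and L8, and 183, 182, 178 and 186 CPM in L1, L2, L3 and L4. The low boars lay close together and 3 of the 4 high boars were above them, with L8 below. In edgeR's fit this came to 0.50 ± 0.22 on the log2 scale (SE), high over low, with an adjusted p of 0.114.

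ND5, the complex I subunit at the far end of the proton-pumping arm, had the largest p. It reached 1521, 2929, 1212 and 602 CPM in L5, L6, L7 and L8, and 1367, 1871, 1213 and 2343 CPM in L1, L2, L3 and L4. The groups overlapped throughout, with L6 highest and L8 lowest. In edgeR's fit this came to -0.11 ± 0.38 on the log2 scale (SE), high over low, with an adjusted p of 0.842.

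COX1 ranged from 6256 CPM in L7 to 12654 CPM in L6 among the high boars and from 6884 to 8585 CPM among the low boars, and edgeR's fit gave 0.19 ± 0.21 on the log2 scale (SE) with an adjusted p of 0.486. ND4, the lowest member for its length, reached 821, 1461, 743 and 523 CPM in L5, L6, L7 and L8, and 679.6, 819.7, 647 and 1027 CPM in L1, L2, L3 and L4. The low boars again lay inside the range of the high boars. COX2, COX3, ATP6 and CYTB had log2 fold changes of 0.42, 0.39, 0.40 and 0.33. ND1, ND2 and ND4 had 0.48, 0.48 and 0.17. In no member did the high group lie wholly above the low group, whereas 8.08% of all genes showed that pattern.

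L6 weighed on these values. Without it the median log2 fold change of the members was 0.09 and their range -0.58 to 0.22, and L6 also had the highest Leydig cell marker sum, 4554 CPM, against 593 to 2544 CPM in the other 7 boars. Without L8, ND3 was called (log2 fold change 0.70), with 9.49% of all genes called. Spermatocyte markers had a median log2 fold change of 0.42, with 4 of 8 higher at an unadjusted p under 0.05 against 17.5% of all genes, and Leydig cell markers a median of 0.34, with 1 of 6 higher by that rule. In the other direction, 2 of 4 peritubular, 3 of 6 round spermatid and 3 of 9 elongating spermatid genes were called lower by adjusted p, against 15.8% of all genes. The round spermatid list was split, with 2 of 6 higher and 3 of 6 lower at an unadjusted p under 0.05. By the same rule, 1 of 8 Sertoli cell genes was higher and 1 lower. In the Sertoli, Leydig, endothelial, macrophage, spermatogonial and spermatocyte lists 0 genes were called. The calls of contrast (i) depended on L3 and L6 and on the samples fitted, since the number of genes called among all tested dropped from 2682 to 1 without L3, to 1 without L6 and to 1 when all 21 libraries shared a fit. The part of these cell types in the members' values was not tested.

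One ratio between neighbours differed. COX1 to COX2 counts stood at 3.13 in L5, 2.80 in L6, 2.49 in L7 and 3.24 in L8, and at 3.53 in L1, 3.41 in L2, 3.26 in L3 and 3.37 in L4. Every high boar was below every low boar, narrowly for L8 against L3. The geometric means were 2.90 and 3.39 (p = 0.0286 by exact two-sided permutation of the boars, as small as 4 against 4 can give). It was the only one of 40 such tests, 10 ratios in each of 4 comparisons, with an unadjusted p under 0.05, and without L1, L2, L3 or L4 its p rose to between 0.0857 and 0.114 (exact permutation test).

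Contrast (iii) addressed testis expression in boars whose sperm hyperactivity changed much or little over 96 h of storage. All 10 members had higher mean levels in the high group, by 1.61-fold for ND5 to 1.95-fold for ND3, but none passed the quasi-likelihood test. Their median log2 fold change was 0.88, against 0.00 over all 12824 genes tested. By edgeR's quasi-likelihood test 0 of 10 members were called, as were 0% of all genes, and the adjusted p of the members ran from 0.24 to 0.278. At an unadjusted p under 0.05 it named 9 members as higher, all but ND5, while 9.5% of all genes were higher by that rule. The likelihood ratio test of edgeR called 3 members, ND1, ND3 and CYTB, with 0.499% of all genes called, and DESeq2 called 2, ND3 and CYTB, with 0.905% of all genes called.

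**Figure D4:**
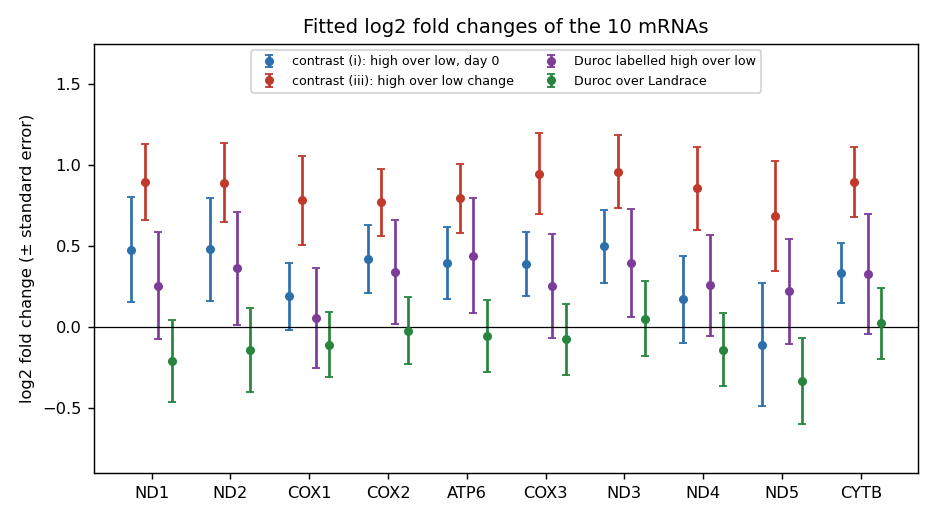
Fitted log2 fold changes (vertical axis, points, with bars for ± 1 standard error) of the 10 members (horizontal axis) from edgeR's quasi-likelihood fit of each comparison. The values of contrast (iii) lie between 0.69 and 0.96 for all 10 members, while those of the other comparisons lie between -0.33 and 0.50, and no member was called by that test.

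The share of counts on the members was 1.99% in L7, 3.99% in L13 and 2.42% in L15. In the low group it was 1.95% in L2, 1.09% in L9, 1.42% in L10 and 1.83% in L12. The groups did not overlap, but L7 and L2 were only just apart. The medians were 2.42% and 1.62%.

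ND3 reached 242, 397 and 223 CPM in L7, L13 and L15, and 182, 119, 114 and 177 CPM in L2, L9, L10 and L12. All 3 high boars were above all 4 low boars. The fitted difference was 0.96 ± 0.22 on the log2 scale (SE). Its adjusted p was 0.24 by edgeR's quasi-likelihood test, 0.0257 by edgeR's likelihood ratio test and 0.0254 by DESeq2.

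CYTB, the complex III subunit, gave 1617, 2899 and 1834 CPM in L7, L13 and L15, and 1352, 844, 1018 and 1339 CPM in L2, L9, L10 and L12. The groups again did not overlap, and L13 was far above L15. The fitted difference was 0.90 ± 0.22 on the log2 scale (SE). Its adjusted p was 0.24 by edgeR's quasi-likelihood test, 0.0329 by edgeR's likelihood ratio test and 0.0316 by DESeq2.

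COX1 behaved less evenly. It stood at 6256, 15706 and 9076 CPM in L7, L13 and L15, and at 6884, 4131, 6062 and 6965 CPM in L2, L9, L10 and L12. L7 was below L2 and L12, so that the groups overlapped, and L13 had the highest COX1 level of all 21 libraries. In edgeR's fit this came to 0.78 ± 0.28 on the log2 scale (SE), high over low, with an adjusted p of 0.24.

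ND5 gave 1212, 1725 and 2021 CPM in L7, L13 and L15, and 1871, 573, 807 and 877 CPM in L2, L9, L10 and L12. L2 was above both L7 and L13, and edgeR's fit gave 0.69 ± 0.34 on the log2 scale (SE) with an adjusted p of 0.278. ND4, which sits beside ND5 in the same arm of complex I, gave 743, 1236 and 1027 CPM in L7, L13 and L15, and 819.7, 367, 426 and 603 CPM in L2, L9, L10 and L12. Its groups overlapped through L2 and L7, and its log2 fold change was 0.86.

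COX2, COX3, ATP6, ND1 and ND2 had log2 fold changes of 0.77, 0.95, 0.80, 0.90 and 0.89, each with groups that did not overlap. In all, 7 of the 10 members were higher without overlap, against 7.46% of all genes. None of the 10 ratios between neighbours differed at p under 0.05 in this contrast (two-sided exact permutation tests, smallest possible p 0.0286), the smallest being that of ATP6 to COX3, with geometric means of 0.830 and 0.906 and p = 0.229.

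L13 carried much of the size of these differences. Without it the log2 fold changes of the members ran from 0.37 to 0.78 and the smallest adjusted p was 0.606 (edgeR's quasi-likelihood test), with all 10 still above 0. Without L2 and L7 they ran from 0.94, for COX2, to 1.301, for ND5.

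The marker sums and the depth of the libraries overlapped between the groups. L13 and L15 had the lowest elongating spermatid sums of the 7 boars, and L13 the highest Sertoli cell sum. Elongating spermatid markers, 9 of 10 found and none at 0, summed to 14099.7, 7404 and 9637 CPM in L7, L13 and L15 and to 13873 to 16948 CPM in the low boars, and 5 of the 9 were lower at an unadjusted p under 0.05, against 10.3% of all genes. Of the round spermatid markers 2 of 6 were lower by that rule, with a median log2 fold change of -0.27. Sertoli cell markers, 8 of 10 above 0, summed to 300.0, 593 and 250.0 CPM in L7, L13 and L15 and to 240.2 to 280.1 CPM in the low boars. Leydig cell markers, 6 of 7 found and none at 0, summed to 1489 to 2544 CPM in the high and 609.8 to 2209 CPM in the low boars. At an unadjusted p under 0.05, 2 of 6 Leydig and 2 of 8 Sertoli cell markers were higher, with medians of 0.59 and 0.41, and the macrophage markers had a median of 0.55 with 0 of 2 named. Depth ran from 57638778 to 91641957 gene counts in the high and from 47988011 to 77217140 in the low boars. By adjusted p, 0 genes of these marker lists were called. The part of tissue make-up and depth in the result was not tested.

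**Figure D5:**
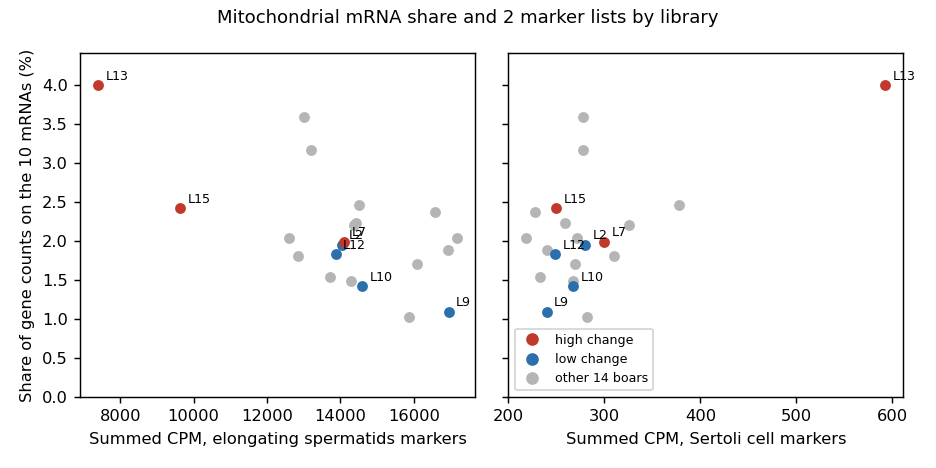
Share of gene counts on the 10 members (%, vertical axis) against the summed CPM of elongating spermatid markers (left) and Sertoli cell markers (right) in 21 libraries, with red for high change, blue for low change and grey for the other 14 boars. L13 combines the highest share, 3.99%, with the lowest elongating spermatid sum and the highest Sertoli cell sum.

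In Duroc, the boars labelled high and low at day 0 did not differ detectably in any member. The share of counts was 2.45% in D1, 2.20% in D2, 3.16% in D3, 1.70% in D4 and 1.03% in D5, all labelled high. It was 1.54% in D6, 1.81% in D7 and 2.22% in D9, labelled low, all inside the range of the high boars. D3 had the highest and D5 the lowest share.

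The log2 fold changes of the members ran from 0.05 for COX1 to 0.44 for ATP6, and 0 of 10 were called by edgeR's quasi-likelihood test (adjusted p = 1.0 for each), with 0% of the 13043 genes called. At an unadjusted p under 0.05 the test named 0 members and 1.21% of all genes, and the likelihood ratio test and DESeq2 each called 0 members and 0% of all genes. ND3 had 233, 293, 394, 168 and 129 CPM in D1 to D5, and 136, 174 and 245 CPM in D6, D7 and D9. COX1 had 8639, 9038, 10058, 7258 and 3279 CPM in D1 to D5, and 7104, 6925 and 8088 CPM in D6, D7 and D9. D5 was far below the rest in COX1, and the labelled groups overlapped in both genes. The median log2 fold change of the members was 0.29. With 1 boar left out it ran from 0.01 without D3, where 6 of 10 members stayed above 0, to 0.48 without D9.

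The difference between high and low boars at day 0 was then compared between breeds. In an interaction fit over the 8 Landrace boars of contrast (i) and the 8 Duroc boars, 0 of 10 members were called by edgeR's quasi-likelihood test, with 0% of all genes called, and 0 were named at an unadjusted p under 0.05, against 15.1% of all genes. The likelihood ratio test also called 0 members and 0.0232% of all genes. The interaction ran from -0.25 for ND1 (standard error 0.51) to 0.30 for ND5 (standard error 0.56) on the log2 scale. These values take the deposited Duroc labels as they stand and would differ under another assignment of the Duroc groups, which was not fitted.

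Duroc and Landrace testes held similar amounts of the mitochondrial messengers. The share of counts had a median of 2.0% in the 8 Duroc libraries, from 1.03% to 3.16%, and of 1.99% in the 13 Landrace libraries, from 1.09% to 3.99%. The log2 fold changes, Duroc over Landrace, ran from -0.33 for ND5 (standard error 0.27, adjusted p = 0.828 from edgeR) to 0.05 for ND3 (standard error 0.23, adjusted p = 0.999). By edgeR's quasi-likelihood test 0 of 10 members were called against 2.77% of all genes, and 0 were named at an unadjusted p under 0.05 against 12.2%. The likelihood ratio test called 0 members and 3.87% of all genes, and DESeq2 called 0 and 4.18%.

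ND5 had 616 to 2078 CPM in Duroc, with a median of 1127, and 573 to 2929 CPM in Landrace, with a median of 1367. The ranges overlapped almost wholly. The ratio of ND5 to CYTB had a geometric mean of 0.728 in Duroc and 0.857 in Landrace (two-sided exact permutation test over 203490 assignments, p = 0.247).

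The complexes that hold the members also hold subunits encoded in the nucleus. Of these, 35 of 48 listed were found and 32 were tested in contrast (i), where 0 were higher and 9 lower. Of all genes, 4.82% were called higher and 15.8% lower. The lower genes included COX5B and COX4I1, both structural subunits of complex IV, with log2 fold changes of -1.14 (standard error 0.24) and -1.44 (standard error 0.31, adjusted p = 0.0208 from edgeR for each). CYC1, the cytochrome c1 subunit of complex III, had -1.24 and COX6A1 -0.60 (adjusted p = 0.0257 and 0.0308 from edgeR). The list had a median of -0.06, against 0.39 for the 10 members and 0.03 for all genes. These calls, and those of the lists that follow, share the dependence on L3 and L6 given above.

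In contrast (iii), 0 of 31 nuclear subunits were called, and their median log2 fold change was 0.09, against 0.88 for the members. The summed CPM of the members was 8.21 to 15.3 times that of the nuclear subunits in the 3 high boars and 4.57 to 8.46 times in the 4 low boars, which overlapped. In contrast (i) the same ratio was 6.53 to 15.6 in the high and 6.75 to 9.53 in the low boars, with medians of 8.35 and 8.47. In Duroc by label it was 3.91 to 12.7 in the high and 6.97 to 9.30 in the low boars.

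Factors that make and process mitochondrial RNA were called in both directions in contrast (i). Over all genes, 4.82% were called higher and 15.8% lower in this contrast. Of 14 transcription genes tested, 1 was higher and 2 lower. POLRMT, the mitochondrial RNA polymerase, stood at -1.22 ± 0.30 on the log2 scale (SE), with an adjusted p of 0.0227 in edgeR, and ESRRA, a nuclear receptor that activates genes of oxidative metabolism, -1.18. GABPA, a transcription factor of many respiratory genes, had 0.51, and PPRC1, a coactivator, had -0.70 without passing (adjusted p = 0.0548 from edgeR).

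Of 21 genes of mitochondrial RNA processing and stability, 4 were higher and 4 lower. The 4 with the smallest p were lower, namely PTCD1 (-1.09), FASTK (-1.60), TBRG4 (-1.60) and ELAC2 (-0.77), the last of which cuts the precursor behind transfer RNAs. The 4 higher genes were GRSF1 (0.54), LRPPRC (0.47), SUPV3L1 (0.46) and PNPT1 (0.45). The list had a median log2 fold change of 0.22, against 0.03 for all genes. Among 16 genes of mitochondrial DNA maintenance, 2 were higher and 3 lower. RNASEH1, POLG, the replicative polymerase, and TOP1MT, a topoisomerase, had log2 fold changes of -0.68, -0.73 and -1.30, and PRIMPOL had 0.67. Of 13 translation factors 1 was higher and 2 lower, with -1.07 for TUFM, the mitochondrial elongation factor Tu, -0.72 for MTRFR and 0.48 for GFM1, an elongation factor, while MTIF2, an initiation factor, had 0.34 without passing (adjusted p = 0.0709 from edgeR).

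In contrast (iii) and in Duroc by label, 0 genes of these 4 lists were called. POLRMT stood at -0.67 ± 0.30 on the log2 scale (SE) in contrast (iii), with an adjusted p of 0.247 in edgeR, beside the values above 0 of all 10 messengers. It did not stand for its list. The 13 transcription genes tested there had a median log2 fold change of 0.28, against 0.00 over all genes. At an unadjusted p under 0.05, 1 of them, GABPA, was higher and 1, POLRMT, was lower. Between the breeds, FASTKD1 and FASTKD3, both of the RNA processing list, were lower in Duroc, and TACO1, a translational activator of COX1, was higher (log2 fold change 0.86, adjusted p = 0.0116 from edgeR), while COX1 itself had a log2 fold change of -0.11.

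The genes whose level was most like the sum over the members were chosen by the smaller of 2 values of Pearson's r, over the 13 Landrace and over the 8 Duroc libraries. RIMKLB ranked first, with r of 0.90 and 0.88. PRPF39 had 0.85 and 0.88, and CREBZF 0.84 and 0.87. The others among the first 5 were ENSSSCG00000018063, with 0.87 and 0.96, and ENSSSCG00000018061, with 0.84 and 0.95. No symbol was found for these 2 identifiers, and whether they belong to the mitochondrial genome was not determined. They begin like those of the members and lie just below that of ND1, ENSSSCG00000018065. They may therefore be products of the same genome, and their likeness to the members is not counted as that of separate genes. All these values share the depth and the normalization of the libraries.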

How the data were processed

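The authors trimmed 100 base single reads of testis messenger RNA with Trimmomatic 0.36, aligned them to Sscrofa11.1 with STAR and counted them per Ensembl gene with HTSeq in its reverse stranded mode. The deposited values are raw counts, with 1 file per boar, and the lines for unassigned reads, 29.4% to 39.0% of the reads, were left out. Groups came from the deposited labels. Symbols were found for 14857 identifiers, and coordinates and lengths came from RefSeq.

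Each comparison used edgeR 4.0.16 in R 4.3.3, with genes at 1 CPM or more in at least 0.5 of its libraries, TMM normalization (factors 0.846 to 1.10 over the 21 libraries), the quasi-likelihood test, Benjamini-Hochberg adjustment over all genes tested and a threshold of 0.05. Levels in the text are CPM normalized over all 21 libraries. Ratios were compared by exact permutation of the boars (SciPy 1.17.1). In simulated data with 200 genes changed by a log2 value of 2 among 12979 genes of contrast (i), 187 were called, with 14 unchanged genes, and among 12824 genes of contrast (iii) 195 were called, with 14 unchanged genes. For Duroc by label, 168 of 200 such genes were called among 13043 genes, with 11 unchanged genes. With all boars and the settings above, the largest fitted log2 fold change of a member was 0.96, for ND3 in contrast (iii). Recovery of genes at that size or below was not tested. Alternatives were edgeR's likelihood ratio test, DESeq2 1.42.0, RLE factors, no filter, library sizes without the named mitochondrial genes, 1 fit of all 21 libraries, and leaving out boars.

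The members, gene lists and tests were chosen with earlier results of these data known. Members with values given by library were those highest and lowest for their length and those with the smallest and largest p in contrast (i), with others added after their values were seen. List examples were the 4 smallest p in contrast (i). FASTKD1, FASTKD3, TACO1, GRSF1, LRPPRC, SUPV3L1 and PNPT1 were named after their values were seen. Counts cover sampling error only in part, since reads carry no molecular identifiers. Each library is 1 boar, so p-values measure the spread between boars. No sequence is printed, because none was held in the files used here.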

Additional observations from a re-analysis of the deposited data

Results flagged for a closer look

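In groups of 4 to 8 libraries, 7 of 105 checks found 1 library far from the rest by Dixon's criterion, where chance alone gives about 5.25. Among the high boars of contrast (i), L6 stood apart with 4515 CPM of COX2, against 2209 to 2515 CPM in the other 3, and with 4902 CPM of COX3, against 2573 to 2841 CPM. In the same group L8 had a COX3 to ND3 ratio of 16.6, against 11.7 to 12.4. In the group with low hyperactivity at day 0, L1 had an ND1 to ND2 ratio of 0.687, against 0.807 to 0.818, and L3 an ND2 to COX1 ratio of 0.0836, against 0.109 to 0.114. Among the 8 Duroc boars, D5 had the lowest COX1 level, 3279 CPM against 6925 to 10058 CPM, and D3 the highest ND5 level, 2078 CPM against 616 to 1269 CPM.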

How the results depend on the processing

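The members' counts of calls depended on the tool in contrast (iii), where the likelihood ratio test called 3 and DESeq2 2, against 0 by the quasi-likelihood test. Leaving out 1 boar gave 0 to 1 called member in contrast (i) and a difference in median share of 0.579 to 1.58 percentage points in contrast (iii), the latter without L7. The number of neighbour ratios with p under 0.05 ran from 0 to 2 in contrast (i) and from 0 to 2 between the breeds. Directions of small fold changes turned when 1 boar was left out. In contrast (i), COX1 ran from -0.053 to 0.30, ND4 from -0.16 to 0.38 and ND5 from -0.58 to 0.18, and without L2 and L7 ND5 had 0.021. In Duroc by label, ND1 ran from -0.051 to 0.50, COX1 from -0.11 to 0.25, ND4 from -0.011 to 0.47 and ND5 from -0.093 to 0.39. Between the breeds, ND2 ran from -0.30 to 0.017, COX1 from -0.17 to 0.016, COX2 from -0.16 to 0.078, ATP6 from -0.21 to 0.044, COX3 from -0.20 to 0.052, ND3 from -0.12 to 0.16 and CYTB from -0.15 to 0.13. The cause was not tested. In contrast (iii) no member changed direction under any alternative. Ratio tests with 1 boar left out were not run in contrast (iii), where none of them could reach 0.05. No paired analysis was possible because replicate numbers name different boars.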
